A study of Mus musculus with 12 samples.

Results

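Klk5 and Klk7 encode kallikrein-related serine proteases of the outer epidermis. On these arrays they were represented by 3 of 9558 probes, all those annotated to either gene: probe 647224_1 for Klk5, and probes 643624_1 and 647218_1 for Klk7. They are 2 of the 6774 genes that could be named. Keratinocytes of the granular layer make both enzymes as inactive precursors and secrete them. Outside the cell they cut the proteins that hold the dead cells of the cornified layer together, so that these cells can be shed. In humans KLK5 has trypsin-like activity and can activate itself and KLK7, which has chymotrypsin-like activity, and the inhibitor LEKTI (gene SPINK5) restrains both.

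Skin keratinocytes were isolated from C57Bl/6NCr mice and infected with an adenovirus. One group received the virus for deltaNp63alpha, the p63 isoform without the N-terminal transactivation domain, and the control group received a virus for beta-galactosidase (beta-gal), so all cells carried an adenovirus. RNA was taken 41 h after infection. For the last 24 h the medium held 0.05 mM calcium (low calcium, in which these cells stay proliferative) or 0.12 mM calcium (high calcium, used to start differentiation). Each of 12 spotted arrays of 2 colours compared deltaNp63alpha with beta-gal RNA within 1 calcium level. Each level had 3 repeats of 2 arrays: on the forward array deltaNp63alpha RNA carried Cy5, and on the reversed array it carried Cy3. Both arrays of a repeat form a dye-swap pair, which counts as 1 replicate. The arrays are called technical repeats, and the number of mice or cultures behind them is not given, so p-values may measure technical spread alone.

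The values are log2 ratios of the dyes, so no absolute level of either gene, and no check of the cell type by its level of keratins, could be had. Of 13 keratinocyte markers 9 had a named probe. The arrays of 3 pairs held values for 7869 to 9096 probes each and are called well filled below (repeat 1 of low calcium, repeats 1 and 2 of high calcium). The other 3 pairs were sparse, with 3366 to 6974. The targeted gene, Trp63, had 1 probe, and its log2 ratio did not rise with deltaNp63alpha: it was -0.16 ± 0.25 (SE, n = 2 pairs) in low and -0.55 ± 0.25 (SE, n = 2 pairs) in high calcium, with limma adjusted p-values of 0.919 and 0.446. Whether that probe detects the viral transcript is not known here. Each SE in this report is limma's, which draws the spread of a gene towards that of all genes. It can be smaller or larger than the pair values of that gene alone would give.

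Klk5 and Klk7 lie close together on mouse chromosome 7 in a cluster of kallikrein genes, with Klk6 as the only protein-coding gene between them. Their RefSeq promoters (250 bases before to 50 after the annotated start, both on the plus strand, GRCm38.p6) are shown because the values of these neighbours moved together below. The windows are chr7:43811044-43811343 for Klk7 and chr7:43842019-43842318 for Klk5. Capitals mark the only match to any of 3 motifs searched on both strands: CATG, the core shared by many p53-family sites; TGANTCA, the AP-1 site; and the p53-family half-site.
Klk7: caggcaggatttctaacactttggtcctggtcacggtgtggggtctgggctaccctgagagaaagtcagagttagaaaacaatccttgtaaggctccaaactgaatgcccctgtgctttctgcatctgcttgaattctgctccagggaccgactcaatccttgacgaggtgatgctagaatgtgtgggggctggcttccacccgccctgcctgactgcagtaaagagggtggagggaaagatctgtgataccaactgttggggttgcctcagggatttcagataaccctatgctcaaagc
Klk5: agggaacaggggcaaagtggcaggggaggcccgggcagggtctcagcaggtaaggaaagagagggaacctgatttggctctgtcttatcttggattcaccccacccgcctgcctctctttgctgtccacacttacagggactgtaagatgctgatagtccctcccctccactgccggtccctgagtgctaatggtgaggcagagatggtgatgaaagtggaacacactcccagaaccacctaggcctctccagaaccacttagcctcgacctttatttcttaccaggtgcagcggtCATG

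CATG was found once in the Klk5 window, at its end, and not in that of Klk7. It occurs in 61.1% of the 32851 promoters of the same length. TGANTCA (7.81% of promoters) and the p53-family half-site (8.36%) were in neither window, which says only that these letters are not there. The guanine and cytosine content was 52.0% for Klk7 and 55.7% for Klk5, against a median of 52.7% over all promoters.

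The first question was whether the values of the 3 probes changed sign when the dyes were swapped. Such a change means a signal that follows the RNA only if the deposited signs of the reversed arrays had not already been switched. As deposited, all 12 values on forward arrays were negative and all 12 on reversed arrays were positive. The sign thus changed with the dye on every array that measured a probe. This was not the rule on these arrays: across 7047 probes measured in all 3 well-filled pairs, the part of the signal that changes sign with the dye exceeded the part common to both orientations in all 3 pairs for 14.8%, and it was also in the same direction as for Klk5 and Klk7 for 7.34%. As deposited, forward and reversed arrays correlated positively over all rows, with a median Pearson correlation of 0.444 in low and 0.255 in high calcium.

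The direction of every value below rests on a reading. The ratios were taken as Cy5 over Cy3, the usual order, and the reversed arrays were turned, so that a negative value means less RNA with deltaNp63alpha. The dye in the numerator is not stated, so this direction is likely and not settled; with Cy3 on top each value would have the other sign. If the deposited ratios were already turned, the arrays of each pair would oppose each other, and both genes would come out near 0, at -0.18 (Klk5, low calcium), 0.23 (Klk5, high calcium) and 0.19 (Klk7, high calcium), none of them called. Under that reading 16.4% of rows were called in low calcium, 9.86% as lower, and 0% in high calcium.

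Klk5 was lower with deltaNp63alpha on all 11 arrays that measured it. In low calcium the log2 ratios were -1.35 (forward) and -0.44 (reversed) in repeat 1, -0.42 and -0.08 in repeat 2, and -1.60 and -1.75 in repeat 3. Repeat 2 was the weakest of the 3 and repeat 3 the strongest. In high calcium they were -1.41 and -1.48 in repeat 1 and -1.51 and -2.36 in repeat 2, and the single reversed array of repeat 3 with a value read -2.28. No high calcium array was above -1.41 and 4 of the 6 low calcium arrays were, while both arrays of low calcium repeat 3 lay inside the high calcium range, so the levels overlapped.

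Klk7 was lower with deltaNp63alpha on all 7 arrays that measured either of its probes. Probe 643624_1 read -1.43 and -1.06 in low calcium repeat 1. In high calcium the same probe read -1.57 and -1.69 in repeat 1, -2.77 and -3.00 in repeat 2, and -2.09 on the forward array of repeat 3. Its 5 high calcium values therefore lay below both low calcium values. Probe 647218_1 read -0.65 and -0.58 in low calcium repeat 1, and -1.003 and -0.995 in repeat 1 and -0.82 and -1.999 in repeat 2 of high calcium. The probes had the same sign on every shared array but differed in size. As pair values, probe 643624_1 was below probe 647218_1 by 0.63 on the log2 scale in low calcium repeat 1, 0.63 in high calcium repeat 1 and 1.48 in high calcium repeat 2. How far these spots also bind RNA of other kallikreins is not measured here.

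**Figure D1:**
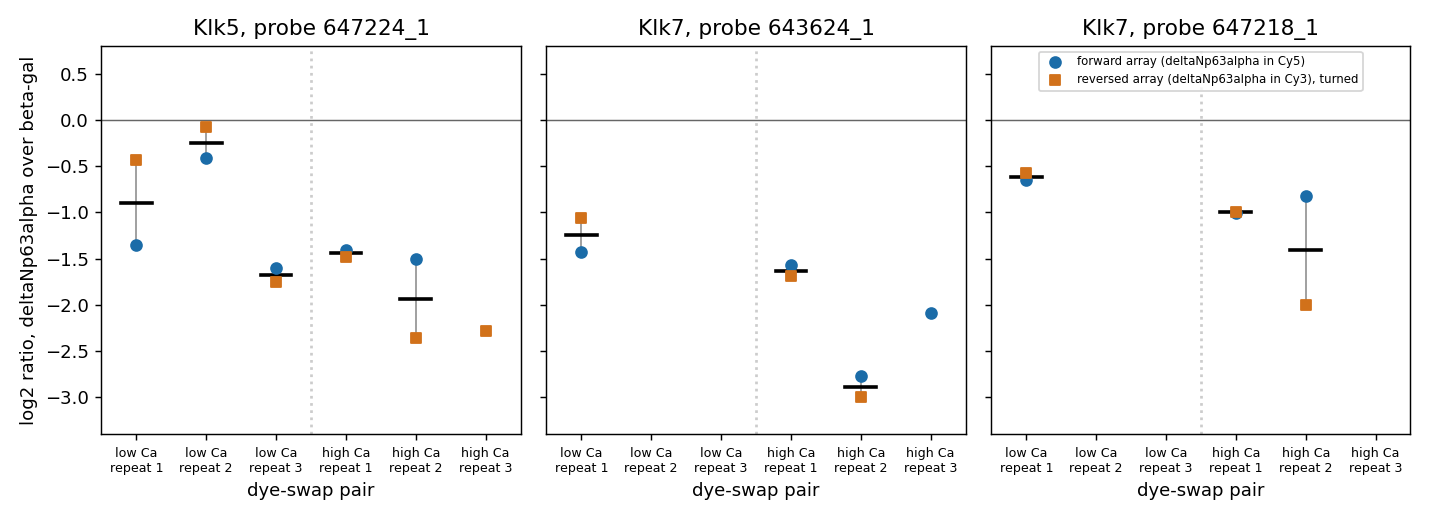
Log2 ratio of deltaNp63alpha over beta-gal RNA (y axis) of the Klk5 probe and both Klk7 probes on each array, by dye-swap pair (x axis). Circles are forward arrays, squares are reversed arrays after turning, and black bars are pair means. Every value lies below 0, and the lowest are those of probe 643624_1 in high calcium repeat 2, at -2.77 and -3.00.

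Among all probes with a pair value, the members lay near the low end in most pairs. In high calcium repeat 2 probe 643624_1 of Klk7 was the lowest of 8770 probes and Klk5 the 4th lowest. In high calcium repeat 1 they were the 5th and the 13th lowest of 7619, and in low calcium repeat 1 the 33rd and the 139th lowest of 8426. Klk5 was the 9th lowest of 2967 in low calcium repeat 3 but only the 1204th of 4702 in low calcium repeat 2. Probe 647218_1 was the 38th lowest in high calcium repeat 2 and the 51st in repeat 1, and within the lowest 5.85% in low calcium repeat 1.

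In high calcium both genes fell with deltaNp63alpha. Klk7, the mean of its probes, had pair values of -1.31 and -2.15 in repeats 1 and 2. It fell 3.32-fold with a 95% interval of 2.34 to 4.70 (log2 ratio -1.73 ± 0.23, limma SE from 2 pairs, adjusted p = 0.00861 by limma). Klk5 had pair values of -1.44 and -1.93. It fell 3.22-fold with a 95% interval of 2.14 to 4.86 (log2 ratio -1.69 ± 0.27, limma SE from 2 pairs, adjusted p = 0.0115 by limma). Of 7263 genes or unnamed probes tested at this level, 1.39% were called, 0.84% of all as lower. Both Klk7 probes passed when tested singly, 643624_1 at -2.26 (limma adjusted p = 0.00197) and 647218_1 at -1.20 (limma adjusted p = 0.0113). In this bulk RNA, fewer cells that make the enzymes and less RNA per cell cannot be told apart. The calls were lost under several other processings: with single arrays of incomplete pairs kept (limma adjusted p = 0.307 for both), with a trended and robust variance (0.238 for Klk5 and 0.314 for Klk7), with arrays scaled to 1 spread (0.0524 and 0.0816), and on forward (0.117 and 0.100) or reversed arrays alone (0.153 and 0.180). The log2 ratios of both genes stayed between -2.46 and -1.20 in these and all other settings in which the reversed arrays were turned.

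In low calcium the log2 ratio of Klk5 was -0.94 ± 0.22 (SE, n = 3 pairs), a 1.92-fold lower value (95% interval 1.37 to 2.68), with pair values of -0.90, -0.25 and -1.67. It was lower in 3 of 3 pairs and did not pass over all genes (limma adjusted p = 0.139), where 0.409% of 4646 were called, 0.387% as lower. That outcome varied with the pairs kept. Without low calcium repeat 2 Klk5 was at -1.28 (limma adjusted p = 0.0347), and without repeat 3 at -0.57 (limma adjusted p = 0.321). It also passed in the fits without high calcium repeat 1 (limma adjusted p = 0.00288) and without high calcium repeat 2 (0.00188), at the same log2 ratio, where all genes shared 1 variance. With the well-filled pairs alone, a choice made after seeing the data, only low calcium repeat 1 was left. The Klk5 value of -0.90 is then that of a single pair and is given without a test. Klk7 had a value in only 1 low calcium pair, repeat 1, at -0.93, and is given without a test. The well-filled pairs hold that same lone low calcium pair.

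Whether the change depended on calcium was asked by the difference of the levels. For Klk5 the high minus low difference was -0.75 ± 0.35 (SE, 3 low and 2 high calcium pairs), with a 95% interval from -1.52 to 0.02 (limma adjusted p = 1.00). None of 4209 genes or unnamed probes passed (0% called; 107 had an unadjusted p under 0.05, and the trended and robust fit also called 0). Within the well-filled pairs the difference was -0.79. For Klk7 the difference rests on 1 low calcium pair and was -0.80, with no test. No array held RNA of both calcium levels, so the effect of calcium on either gene was not measured.

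On the 6 arrays that measured both genes, Klk5 and Klk7 were closer to each other than to any other of 5207 genes with values there. Their root mean square difference was 0.251 on the log2 scale. The Klk7 value here is the mean of both its probes, and in all 3 pairs the Klk5 pair value lay between them. In high calcium repeat 2 probe 643624_1 was at -2.88, Klk5 at -1.93 and probe 647218_1 at -1.41. The closeness thus holds for the mean and was not computed for either probe alone. That comparison was added after the values were seen, and the 6 arrays are 3 dye-swap pairs of shared RNA. Over all arrays of each member, the genes most like Klk5 (11 arrays, 1352 genes compared) were Sptssa, Cav1, Mthfd2, Anxa1 and Nktr, with root mean square differences of 0.714 to 0.809 against a median of 1.61. Those most like Klk7 (7 arrays, 2166 genes compared) were Sptssa, Sprr1a, Defb1, Mindy3 and Flg, at 0.615 to 0.731 against a median of 1.71. Sprr1a and Flg encode proteins of the cornified cell, and Defb1 encodes a beta-defensin. Sptssa, a subunit of the enzyme that starts sphingolipid synthesis, led both lists, with turned ratios from -1.82 to 0.33 on the Klk5 arrays. Klk7 could not enter the list of Klk5, or Klk5 that of Klk7, because each lacked a value on an array of the other.

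The nearest relatives did not show values of the same size. Of the other kallikreins on the list 5 of 23 had a probe, among them Klk12, Klk8, Klk6 and Klk4 of the same cluster. Limma called 0 of the 5 tested in low calcium and 0 of the 4 tested in high calcium. At each level 1, Klk8, had an unadjusted limma p under 0.05, and the trended and robust fit called 0 too. Over all rows 0.409% were called in low and 1.39% in high calcium, so these counts do not set the kallikreins apart. Klk8, a protease of the granular layer also known from the brain, was at -0.46 ± 0.21 (SE, n = 3 pairs) in low and -0.51 ± 0.21 (SE, n = 3 pairs) in high calcium. Klk12 was at -0.12 and -0.28, and Klk6, which lies between Klk5 and Klk7, at -0.36 and -0.11. Klk4, an enzyme of tooth enamel, was at -0.02 in low calcium and had 1 high calcium pair, at -0.34. Klk1, the tissue kallikrein, was at 0.20 and 0.07.

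Set against these 4 neighbours within each pair, Klk7 was lower in every pair measured, with mean log2 differences of -1.35 to -1.30. Klk5 was lower than Klk12 in 5 of 5 pairs (mean log2 difference -1.05) and lower than Klk4 in 4 of 4 (-1.08). It was lower than Klk8 in 4 of 5 pairs and than Klk6 in 3 of 4, and the exception in both was low calcium repeat 2. No such difference could pass an exact two-sided sign-flip permutation test: 5 pairs allow a p of 0.0625 at best, which Klk5 against Klk12 reached, 4 pairs 0.125 and 3 pairs 0.25. Adjusted over the 8 comparisons, the lowest p was 0.286. The differences are therefore given as values.

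**Figure D2:**
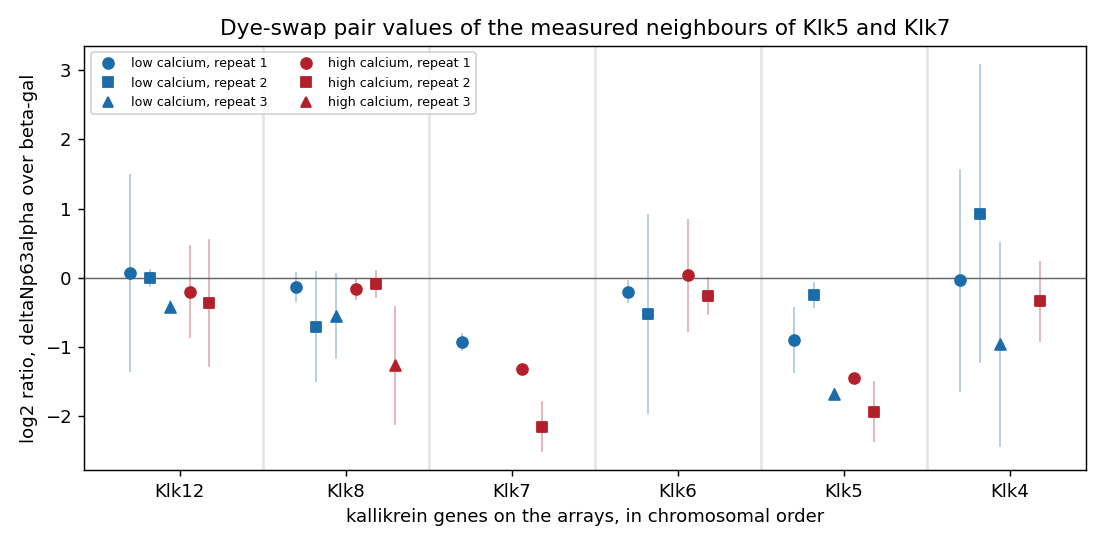
Pair values (points) of the 6 measured kallikreins of the cluster, in chromosomal order on the x axis, as log2 ratio of deltaNp63alpha over beta-gal on the y axis; thin lines join the forward and the turned reversed array. Klk7 and Klk5 have lines wholly below 0, while the lines of Klk12, Klk6 and Klk4 cross 0 in most pairs.

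The other genes of shedding were grouped by role, 85 in all, of which 32 had a named probe. In low calcium 1 of 18 tested was called lower and 0 higher, with a median log2 ratio of -0.01 against 0.02 over all rows. In high calcium 1 of 27 tested was called lower and 0 higher, with a median of -0.14 against 0.01. The share called lower over all rows was 0.387% and 0.84%.

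Among proteases that activate others, 0 of 4 tested were called by limma in low calcium (1, Tmprss4, had an unadjusted p under 0.05) and 1 of 6 in high calcium. Tmprss4, a membrane-bound serine protease, fell 1.91-fold in high calcium (log2 ratio -0.93 ± 0.17, limma SE from 3 pairs, adjusted p = 0.0262 by limma). Its pair values were -1.24, -1.15 and -0.41, and in repeat 3 the forward array read -1.49 and the reversed array 0.66. The call was lost without high calcium repeat 1 (limma adjusted p = 0.140) and without repeat 2 (0.0904). In low calcium Tmprss4 was at -0.51 (limma adjusted p = 0.464), with forward arrays at -0.996 and -2.69 and reversed arrays of the same repeats at 0.07 and 1.57.

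Among the cathepsins and other enzymes of the outer epidermis, 1 of 4 tested was called in low calcium and 0 of 7 in high calcium (limma; 3 of these 7, Ctsd, Ctsl and Sgpl1, had an unadjusted p under 0.05). Ctsl, the lysosomal protease cathepsin L, fell 2.15-fold in low calcium (log2 ratio -1.11 ± 0.17, limma SE from 3 pairs, adjusted p = 0.0198 by limma). Its pair values were -0.89, -1.22 and -1.20, and it was lower on all 11 arrays that measured it, the only called gene of these lists of which that held. The low calcium call was lost without low calcium repeat 2 (limma adjusted p = 0.0525) and without repeat 3 (0.0520). In high calcium it was at -0.72 (limma adjusted p = 0.146), from pairs at -0.33 and -1.10. Ctsd, cathepsin D, a protease also known from shedding, was at -0.60 in high calcium (limma adjusted p = 0.145).

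The inhibitors and the adhesion genes of the lists gave no call by limma. In low calcium 0 of 2 and 0 of 2 tested were called, and in high calcium 0 of 6 and 0 of 2. In low calcium 3 of these 4 had an unadjusted limma p under 0.05, in both directions. Slpi was higher there, at 0.61, as was Ppl, at 0.49, while Pkp1 was lower, at -0.51. The directions of Slpi and Pkp1 rest mainly on the reversed arrays. In repeats 1 to 3 Slpi read 0.02, -0.445 and -0.61 on forward and 0.95, 3.45 and 0.30 on turned reversed arrays. Pkp1 read 0.12, 0.43 and 0.55 on forward and -0.66, -1.18 and -2.31 on turned reversed arrays. In high calcium 0 of the tested genes of both lists had an unadjusted limma p under 0.05. In high calcium Spint2, an inhibitor of membrane serine proteases, was at -0.33 and the serpin gene Serpina3n at -0.25. Pkp1 and Ppl, which encode the desmosomal proteins plakophilin 1 and periplakin, were at -0.30 and -0.13 there. Whether Klk5 or Klk7 cuts either protein was not tested. Of the substrates with signalling roles 1 was tested in low and 2 in high calcium, and neither passed: Camp, the precursor of the antimicrobial peptide cathelicidin, was at 0.32 and Il1b, a cytokine gene, at 0.20 in high calcium, with an adjusted p of 0.495 and 0.771 by limma. Spink5, Cdsn, Dsg1a and Dsc1, the genes of the main inhibitor and of the best known cut proteins, were not analysed here. Markers of melanocytes, fibroblasts, immune cells and endothelium, 13 with a probe, had log2 ratios from -0.175 to 0.383 in low calcium (11 tested) and from -0.349 to 0.334 in high calcium (12 tested), with medians of 0.112 and 0.153. Of the keratinocyte markers 4 were tested in low calcium, from -0.237 to -0.163 with a median of -0.219. In high calcium 7 were tested, from -1.57 to 0.207 with a median of -0.259. Only Krt10, a keratin of differentiating cells, was called, at -1.57 in high calcium. Whether shifts in cell makeup have a part in the Klk5 and Klk7 values was not tested.

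**Figure D3:**
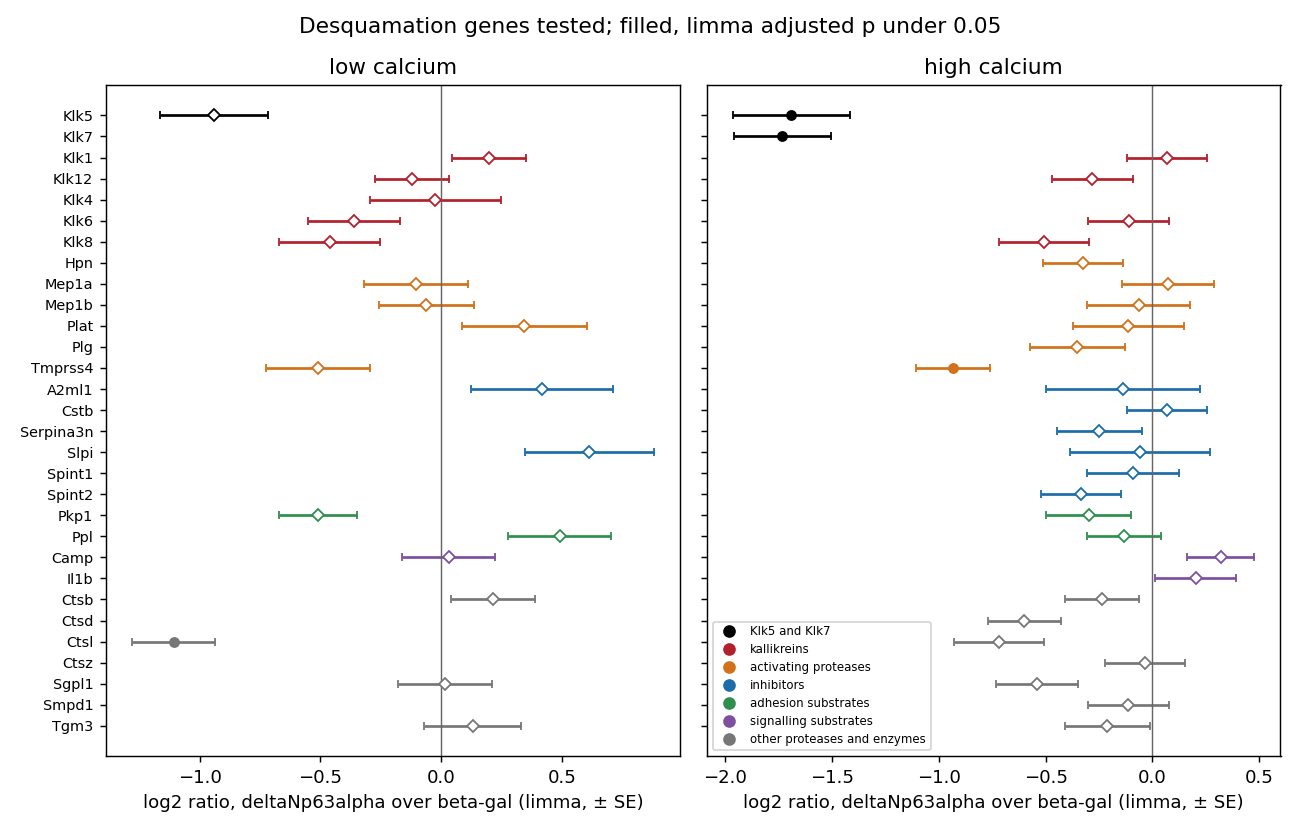
Log2 ratio of deltaNp63alpha over beta-gal (x axis, limma estimate ± SE over 2 or 3 pairs) of Klk5, Klk7 and the tested genes of the shedding lists (y axis, coloured by role), in low calcium on the left and high calcium on the right; filled points passed at an adjusted p under 0.05. Klk7 and Klk5 lie at -1.73 and -1.69 in high calcium, below every listed gene.

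**Figure D4:**
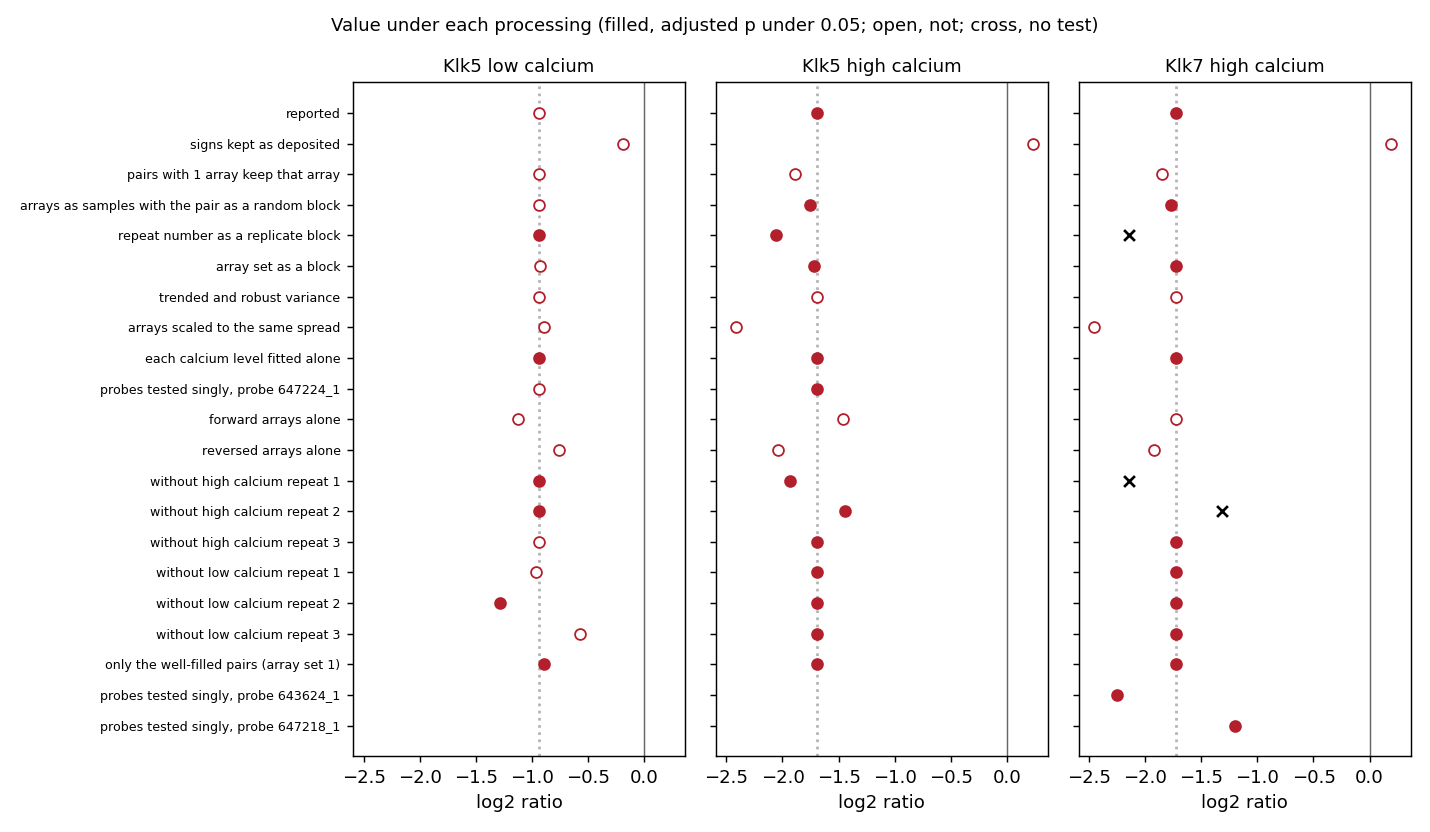
Log2 ratio (x axis) of Klk5 in low calcium and of Klk5 and Klk7 in high calcium under each processing (y axis); filled points passed, open points did not, and a cross marks a value with no test. All points lie below 0 except those with the deposited signs kept in high calcium, at 0.23 and 0.19. Some filled Klk5 points rest on 1 pair and are no replicated test. They are the well-filled pairs in low calcium, and high calcium without high calcium repeat 1 or 2.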

How the data were processed

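The authors deposited 1 table of log2 ratios of the dyes, with 1 column per array. Per the labels' protocols, total RNA was labelled with a Genisphere kit. How spots were scanned, corrected, normalised and filtered, no source used here states. The log base is unstated and was taken as 2 from the range (-7.88 to 4.60). Probes took their gene from the platform annotation (7457 with 1 symbol, 481 with several, 1620 unlisted), symbols were updated by gene ID, and probes of 1 symbol were averaged, giving 8875 rows. Arrays were centred on their median. A pair value was the forward minus the reversed value divided by 2. It was missing where either array was. All pairs were fitted together by calcium level with lmFit and eBayes of limma 3.58.1 in R 4.3.3. Testing needed at least 2 pairs at a level; a row was called at a Benjamini-Hochberg adjusted p under 0.05 over all rows. The fit was tested on simulated pairs. Intervals are limma's. Sequences are from RefSeq tables, which held both promoters.

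The members, lists and tests were chosen with earlier results of these data known. Genes were named by rule: both members, Trp63, called genes of the shedding lists or, where a list had none, its 2 of smallest p in high calcium, and the 5 genes most like each member. The neighbours Klk1, Klk4 and Klk6, and Ctsd, Sgpl1, Slpi and Krt10, were named outside it, after their values were seen. Alternatives covered orientation, incomplete pairs, arrays as samples, blocks, variance, scaling, missing values, single probes, dye orientation and left-out pairs.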

Additional observations from a re-analysis of the deposited data

Results flagged for a closer look

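Arrays of 1 calcium level were searched for a value far from the others, in 15 sets of 4 to 6 arrays for the members and the named proteases. For independent values chance sets apart about 5% of such sets, and 3 stood apart. The arrays of a pair share RNA and the Klk7 probes share arrays, so that rate is only a rough guide here. Probe 647218_1 of Klk7 read -1.999 on the reversed array of high calcium repeat 2, against -1.003 to -0.82 on the other 3 high calcium arrays with a value. Probe 643624_1 of the same gene was also at its lowest on that array, at -3.00. Tmprss4 read 0.66 on the reversed array of high calcium repeat 3, while the other 5 high calcium arrays lay between -1.49 and -0.94. Klk8 read -2.10 on that same sparse array, against -0.42 to 0.09 on the other 5. Neither Klk5 nor probe 643624_1 of Klk7 had such a value at a level with at least 4 arrays.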

How the results depend on the processing

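With the deposited signs kept, Klk5 was at 0.23 and Klk7 at 0.19 in high calcium, the high minus low difference of Klk5 was 0.41, Klk7 in low calcium was -0.11, and Ctsl was 0.39 in low and 0.043 in high calcium; the listed genes called were 4 and 0 (low and high calcium), against 1 and 1. Rows called over all genes were 19 in low and 101 in high calcium. Under that reading these counts became 763 and 0 (1270 in high calcium with an unadjusted limma p under 0.05). They were 0 and 0 with single arrays kept or trended variance, 13 and 58 with arrays as samples, and 44 and 134 with the array set as a block. They were 0 and 1 on 1 spread, 49 and 236 with levels alone, and 4 and 14 in complete rows. In well-filled pairs, with 1 low calcium pair, 598 rows were called in high calcium. Forward arrays alone gave 33 and 0, and reversed arrays alone 330 and 1. With 1 pair left out the counts were 6 to 51 and 33 to 151. In high calcium the calls of Klk5 and Klk7 were lost at -1.89 and -1.85 (single arrays kept), -1.69 and -1.73 (trended and robust variance), -2.42 and -2.46 (arrays on 1 spread), -1.46 and -1.72 (forward alone) and -2.04 and -1.92 (reversed alone). In low calcium Klk5 passed at -0.94 with each level fitted alone (limma adjusted p = 0.00294). By limma the adjusted p was nearly the same, 0.00288, with high calcium repeat 1 left out, where all genes shared 1 variance. Whether genes shared 1 variance with levels fitted alone was not recorded, so this pass may leave out the spread of Klk5's own pairs. In well-filled pairs Klk5 was at -0.90, from 1 low calcium pair and without a test. On reversed arrays alone Tmprss4 in low calcium was 0.26.

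Listed genes called in low calcium were 0 with single arrays kept, arrays as samples, trended variance, arrays on 1 spread, complete rows or forward arrays alone, and 2 on reversed arrays alone. In high calcium they were 0 in those settings and on reversed arrays alone, 2 with the array set as a block and 3 in well-filled pairs. With 1 pair left out, Klk5 ranged from -1.28 to -0.57 in low and -1.93 to -1.44 in high calcium. Klk7 in high calcium ranged from -2.15 to -1.31. Where only 1 high calcium pair remained, the value of either gene is given without a test. Both genes kept their high calcium calls when any other pair was left out, but none of those pairs enters their high calcium value. That value stayed at -1.69 for Klk5 and -1.73 for Klk7, so these fits cannot show how far it rests on single pairs. The listed counts ranged from 0 to 1.

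Repeat numbers did not clearly pair the levels (correlations of deviations -0.03, -0.11 and 0.20). Repeats 1 and 2 each correlated best with the other number, and repeat 3 with its own. With repeat number as a replicate block, 49 rows were called in low and 83 in high calcium. All genes shared 1 variance in that fit, so its p-values leave out the spread of each gene's own pairs. Klk5 passed there at -0.94 (limma adjusted p = 0.000494) and -2.06. Klk7 was -1.76 and -2.15, with no residual degrees of freedom. Rows complete in all 6 pairs gave no value for either gene. The number of arrays and missing values limit precision.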

Other observations

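The members and their measured neighbours differed in how their arrays behaved. Klk4, Klk6 and Klk12 were below 0 on every forward array (4 of 4, 4 of 4 and 5 of 5) and, after turning, on only 1 of 5 reversed arrays each, so most of their signal kept its sign when the dyes were swapped. Klk8 had the other pattern, with 2 of 6 forward and 6 of 6 reversed arrays below 0. Klk5 was below 0 on 5 of 5 forward and 6 of 6 reversed arrays and Klk7 on 4 of 4 and 3 of 3. A list of the kallikreins by forward arrays alone would therefore put Klk4 (-1.63, -1.22 and -2.43 in low calcium) beside Klk5, while its pair values there were -0.04, 0.93 and -0.96. What the part shared by both orientations comes from was not tested.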
